A study of Homo sapiens with 12 samples.

Results

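The genes described here are those whose expression was reduced far more in KURAMOCHI (Ku) cells than in COV362 (Cov) cells by the same concentration of THZ1. For each gene and line, the mean FPKM at 250 nM THZ1 was divided by the mean FPKM in DMSO, giving the share of expression left. A gene was a member when its mean DMSO FPKM was 5 or more in both lines and its share left in Ku cells was at most 1/3 of its share left in Cov cells. Spike-in rows and rows of microRNA, snoRNA and scaRNA genes were left out. Of 8826 genes that met the expression minimum in both lines (the eligible genes), 104 were members, which is 1.18%. The reverse pattern, with at least 3 times as large a share left in Ku cells, was met by 25 genes. The members were thus chosen by the FPKM values at 250 nM and in DMSO, and their values at 250 nM are given as a description and carry no test.

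Both lines are established human ovarian cancer cell lines. The 12 RNA-seq libraries comprise 2 replicates each of Ku and Cov cells given DMSO, the vehicle, THZ1 at 50 nM or THZ1 at 250 nM, all harvested after 6 hr. FPKM is a read level per length of transcript and per depth of the library, here rescaled by the authors to ERCC spike-in RNAs added in proportion to cell number. The labels do not say whether replicates came from separate cultures, so p-values measure the spread between these libraries, which may be technical, and each line stands for itself alone. In DMSO, 11 of 12 serous ovarian epithelial markers exceeded 1 FPKM in each line, with MUC16 below it in Ku and WT1 below it in Cov, and 2 of 8 markers of immune, endothelial and stromal cells did so in Ku cells (VWF and ACTA2) and 1 (ACTA2) in Cov cells. SOX17, a member, is also 1 of the 12 epithelial markers. Sequencing depth is unknown because no counts were used, and the tables carry a lowest value, the floor, between 0.0783 and 0.119 FPKM depending on the library.

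THZ1 is a covalent inhibitor of CDK7 that also inhibits CDK12 and CDK13. CDK7 phosphorylates the C-terminal domain of RNA polymerase II around initiation and promoter escape, and CDK12 and CDK13 phosphorylate it during elongation. When transcription is blocked, an mRNA falls at a pace set by its own decay, so short-lived mRNAs fall first. Immediate early genes, such as EGR1, JUN and the IER genes, are short genes that cells switch on within minutes of a growth factor or stress signal without new protein synthesis, and their mRNAs decay quickly. Many other regulators of signalling, among them ID, SOX and SPRY genes, also have short-lived mRNAs.

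Proximal promoter sequence is shown for 4 members whose windows carry motifs with known binding factors and which represent the main groups below: the immediate early genes EGR1 and JUNB, the helix-loop-helix inhibitor ID1 and the NF-kB inhibitor NFKBIA. Each line gives the 150 bases before the RefSeq start of the gene, 5′ to 3′ on the strand of the gene, from GRCh38.p14. Capitals mark matches, on either strand, to the motifs searched. They lie at chr5:138465329-138465478 on the plus strand for EGR1, chr20:31605139-31605288 on the plus strand for ID1, chr14:35404750-35404899 on the minus strand for NFKBIA and chr19:12791336-12791485 on the plus strand for JUNB.
EGR1: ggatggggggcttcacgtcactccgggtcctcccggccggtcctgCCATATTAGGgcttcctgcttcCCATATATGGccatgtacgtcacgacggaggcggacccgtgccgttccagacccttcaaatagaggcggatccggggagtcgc
ID1: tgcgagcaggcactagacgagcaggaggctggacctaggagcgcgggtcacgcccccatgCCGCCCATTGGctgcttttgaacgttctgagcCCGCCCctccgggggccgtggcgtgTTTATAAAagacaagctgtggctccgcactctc
NFKBIA: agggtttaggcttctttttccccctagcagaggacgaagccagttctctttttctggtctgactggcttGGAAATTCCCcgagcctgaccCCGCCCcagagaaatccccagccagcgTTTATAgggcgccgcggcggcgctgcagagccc
JUNB: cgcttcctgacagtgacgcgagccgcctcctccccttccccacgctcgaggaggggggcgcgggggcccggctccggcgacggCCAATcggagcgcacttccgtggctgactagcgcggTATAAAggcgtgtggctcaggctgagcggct
The EGR1 window holds 2 CArG boxes (CC, 6 bases that are A or T, then GG), the element bound by serum response factor. ID1, NFKBIA and JUNB each hold a TATAAA match a short way before the start, that of NFKBIA on the opposite strand only. NFKBIA holds an NF-kB match (GGG, any 2 bases, then TTTCC), ID1 and JUNB hold a CCAAT match, and ID1 and NFKBIA hold GC boxes (GGGCGG).

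At 250 nM, the median member kept 4.81% of its DMSO expression in Ku and 19.1% in Cov. The medians over all eligible genes were 35.8% and 31.5%. In Ku cells 93 of the 104 members were left at under 10%, against 23 in Cov cells. For 74 members the share left in Cov cells lay between 10% and 50%, and for 7 it was over 50%. The ratio of the shares (Ku over Cov) ran from 0.0669 for EGR1 to 0.333 for SAC3D1, with 28 members at or under 0.2, 45 between 0.2 and 0.3 and 31 above 0.3. All but 1 member kept this order in every combination of libraries, the highest Ku share lying below the lowest Cov share for 103 of 104. The exception was CBWD5, described below. The rule used these same libraries, so it largely set this order.

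**Figure D1:**
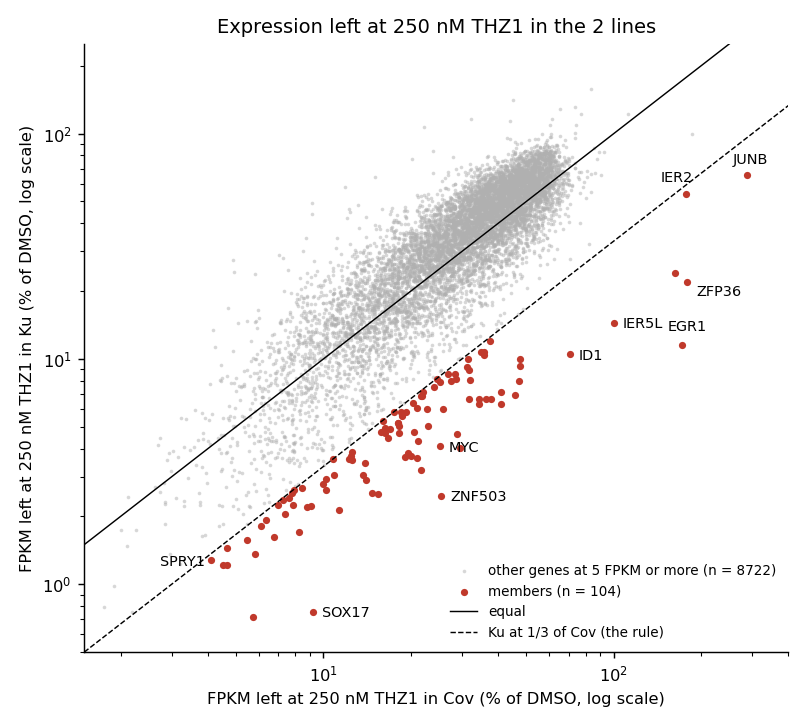
Share of DMSO expression left at 250 nM THZ1 in Cov cells (x axis) and Ku cells (y axis), in percent on log scales, for the 104 members (red) and the other eligible genes (grey), with a solid line at equality and a dashed line at 1/3, the limit that chose the members. EGR1, ZFP36, JUNB and IER2 stand at the right, above 100% in Cov cells and below it in Ku cells, and SOX17 stands near the bottom, at 0.757% in Ku cells.

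EGR1, a zinc finger transcription factor and immediate early gene on chromosome 5 (137801168 to 137804992 in hg19, the build of the files), had the smallest ratio. Its FPKM in Ku cells was 23.2 and 20.7 in DMSO, 5.69 and 5.65 at 50 nM, and 2.03 and 3.02 at 250 nM. Cov cells gave 7.40 and 6.96 in DMSO, 4.89 and 4.32 at 50 nM, and 12.1 and 12.6 at 250 nM. Thus EGR1 stood below both DMSO libraries at both concentrations in Ku cells, whereas Cov cells had less at 50 nM and stood above both DMSO libraries at 250 nM. The share left at 250 nM was 11.5% in Ku and 172% in Cov, a 15.0-fold gap. At 50 nM EGR1 was called lower in Ku, the log2 fold change being -1.78 ± 0.17 (SE, limma adjusted p = 0.00062), and was not called in Cov cells (-0.55 ± 0.10, limma adjusted p = 0.0014). The Ku call was lost when any 1 of the 6 Ku libraries was left out, with the log2 fold change between -1.86 and -1.70, and with the replicate block (adjusted p = 0.00136 in limma). The difference between the lines was not tested. Equal-median scaling turned the Cov value of EGR1 to 0.48.

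ZFP36, JUNB and IER2 resembled EGR1 at 250 nM in that their FPKM lay below both DMSO libraries in Ku cells and above both in Cov cells. ZFP36 encodes tristetraprolin, which binds AU-rich elements and speeds mRNA decay. Its FPKM went from 18.9 and 17.1 in DMSO to 12.5 and 12.6 at 50 nM and 3.22 and 4.71 at 250 nM in Ku. In Cov cells ZFP36 read 10.5 and 10.95, then 11.5 and 9.35, then 18.5 and 19.9. JUNB, an AP-1 subunit, was the least reduced member in Ku cells. Its FPKM in Ku cells was 20.9 and 18.4 in DMSO, 36.0 and 37.5 at 50 nM (not called, log2 fold change 0.87 ± 0.14, limma adjusted p = 0.00369), and 11.01 and 14.7 at 250 nM. In Cov cells JUNB read 76.2 and 82.1, then 124 and 112, then 205 and 250.02, so that 287% of the DMSO level was present at 250 nM against 65.4% in Ku cells. IER2, another immediate early gene, stood at 53.9% in Ku and 177% in Cov. Only 7 eligible genes (0.0793%) had both 250 nM libraries above both DMSO libraries in Cov cells, and 5 of them were members: EGR1, ZFP36, JUNB, IER2 and CBWD5. The rule used these values, so genes raised in Cov cells needed only a modest fall in Ku cells to be members.

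Of the 22 gene lists used, that of immediate early genes had the largest share of its eligible genes among the members. Of 45 listed immediate early genes 33 were eligible, and 12 of these (36.4%) were members, against 1.18% of all eligible genes: EGR1, ZFP36, IER5L, IER5, JUN, ZFP36L2, JUNB, BTG2, CYR61, IER2, CTGF and JUND. All 3 eligible JUN genes were members. JUN kept 6.66% in Ku and 36.5% in Cov, and JUND kept 9.99% and 31.6%. The FOS relatives FOSL2 and FOSL1 were not members, with 7.66% and 12.5% left in Ku cells and 10.9% and 13.9% in Cov cells. The 21 listed immediate early genes that were eligible but not members had median shares left of 10.5% in Ku and 13.9% in Cov, and 17 of the 21 had less left in Ku cells. Of the list, MAFF went furthest the other way, with 114% left in Ku and 44.1% in Cov. Among all eligible genes, 2953 (33.5%) had less left in Ku cells.

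**Figure D2:**
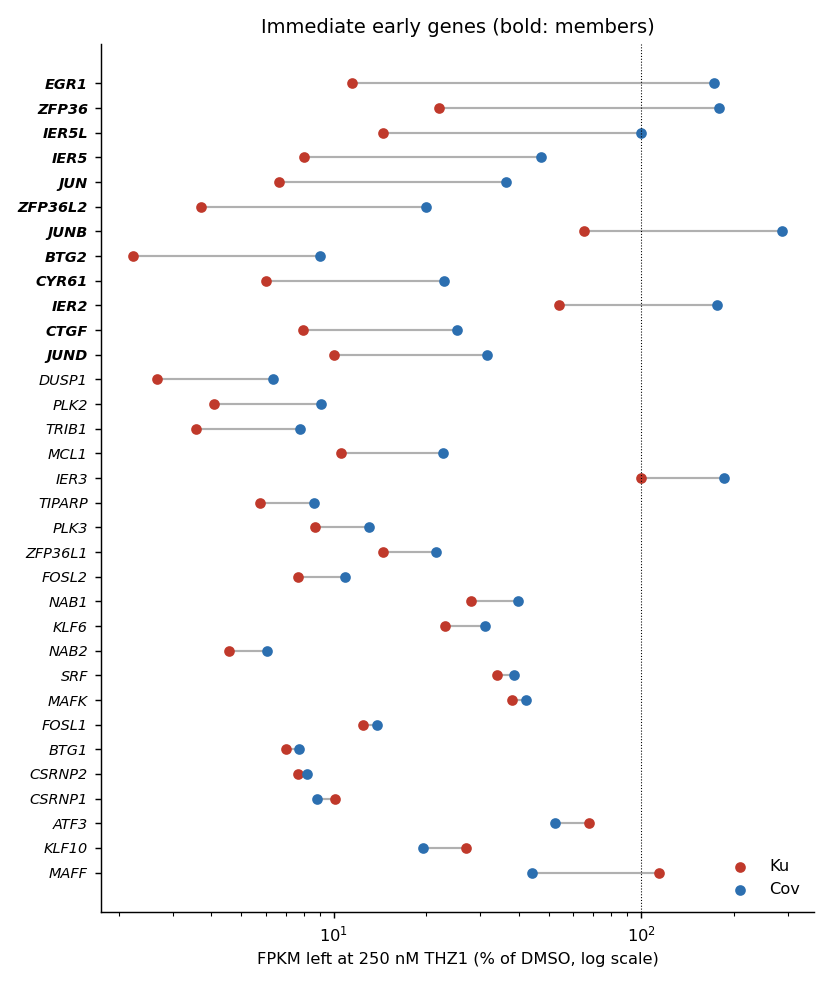
Share of DMSO expression left at 250 nM THZ1 (x axis, percent on a log scale) in Ku cells (red) and Cov cells (blue) for each of the 33 eligible immediate early genes, ordered by the ratio of the shares, with members in bold and a dotted line at 100%. In 29 of the 33 genes the Ku point lies to the left of the Cov point.

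IER5L and IER5, which encode nuclear immediate early response proteins, had a wider difference at 250 nM than at 50 nM. The rule asked for a gap at 250 nM alone, so it favoured a wider gap there for members in general. IER5L FPKM in Ku cells was 28.2 and 28.0 in DMSO, 26.9 and 29.8 at 50 nM, and 3.41 and 4.75 at 250 nM. The Cov libraries read 27.2 and 29.4, then 38.5 and 35.9, then 24.5 and 32.1. The Ku libraries at 50 nM overlapped those in DMSO, and the Cov libraries at 250 nM overlapped theirs. IER5L kept 101% in Ku and 131% in Cov at 50 nM, and 14.5% and 99.9% at 250 nM. IER5 kept 68.0% and 89.5% at 50 nM, and 8.02% and 47.1% at 250 nM. CYR61 and CTGF, secreted matricellular proteins whose genes are well-known targets of the Hippo pathway effector YAP, were among the highest expressed members. CTGF had the highest DMSO level of all members in Ku cells, with 781 and 702 FPKM, and read 374 and 374 at 50 nM and 59.9 and 57.7 at 250 nM. CYR61 kept 6.01% in Ku and 22.8% in Cov, and CTGF kept 7.93% and 25.3%.

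The helix-loop-helix inhibitors ID1, ID3 and ID4, which pair with basic helix-loop-helix factors and keep them off DNA, were all members. ID1 (chromosome 20, 30193086 to 30194318 in hg19) read 475 and 501 FPKM in DMSO, 299 and 291 at 50 nM, and 52.1 and 50.5 at 250 nM in Ku. The Cov libraries of ID1 read 154 and 177, then 142 and 138, then 107 and 127. Its share left at 250 nM was therefore 10.5% in Ku and 70.6% in Cov, and at 50 nM it was called lower only in Ku cells (log2 fold change -0.72 ± 0.06, limma adjusted p = 0.00042, against -0.24 ± 0.11 and 0.0739 in Cov cells, the difference between the lines not being tested). The Ku call of ID1 was likewise lost without any 1 Ku library, and equal-median scaling brought its log2 fold change to -0.019. ID3 kept 7.12% in Ku and 41.0% in Cov. ID4 kept 5.06% and 22.9%. The fourth family gene, ID2, was no member, with 65.9% left in Ku and 83.9% in Cov. Related basic helix-loop-helix repressors were members as well. BHLHE40 read 6.204 and 5.09, then 2.13 and 2.42, then 0.454 and 0.260 FPKM in Ku, and 32.4 and 34.1, then 14.2 and 15.1, then 14.1 and 13.2 in Cov. Its level in DMSO was the higher in Cov, and its Cov level changed little between the THZ1 concentrations. The Notch target HES1 kept 9.34% in Ku and 47.4% in Cov.

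SOX17, a lineage factor of the serous epithelium, had the next smallest ratio after EGR1. Its FPKM in Ku cells was 139 and 146 in DMSO, 30.3 and 33.9 at 50 nM, and 1.06 and 1.10 at 250 nM. In Cov cells SOX17 was 113 and 121, then 34.3 and 32.2, then 9.88 and 11.6. The lines were close at DMSO and at 50 nM, where 22.5% and 28.5% were left. At 250 nM, the concentration that the rule used, 0.757% and 9.18% were left. SOX17 was called lower at 50 nM in both lines (log2 fold changes -2.12 ± 0.09 and -1.78 ± 0.10, limma adjusted p = 0.000223 and 2.16e-05), the Ku call again being lost without any 1 Ku library. Equal-median scaling gave -1.42 and -0.58 and lost both calls (limma adjusted p = 0.00194 and 0.00975). Of 6 eligible SOX genes, SOX9, SOX12 and SOX4 were further members, SOX9 reading 14.0 and 13.2 FPKM in Ku DMSO and 0.719 and 1.154 at 250 nM, and 7.43 and 7.20 against 3.30 and 3.39 in Cov. The shares left of the 3 genes were 6.88%, 5.21% and 5.62% in Ku and 45.7%, 18.1% and 18.6% in Cov. SOX5 and SOX13, which have 15 and 14 exons, were not members, with 41.2% and 11.9% left in Ku cells and 40.4% and 9.12% in Cov cells.

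MYC, the oncogene at the centre of the study, was a member. Its FPKM in Ku cells was 82.5 and 73.9 in DMSO, 51.2 and 49.2 at 50 nM, and 3.11 and 3.30 at 250 nM. In Cov cells MYC was 165 and 180.3, then 105 and 107, then 43.6 and 43.5. The share left was nearly the same in the lines at 50 nM, 64.3% and 61.3%, but 4.10% and 25.2% at 250 nM, the concentration that the rule used. At 50 nM MYC was called lower in Cov cells (-0.70 ± 0.08, limma adjusted p = 0.00014) and not in Ku cells (-0.63 ± 0.08, limma adjusted p = 0.00192). No other of the 9 eligible genes of the MYC, MAX and MXD network was a member. MCL1, the anti-apoptotic BCL2 family gene that the study also follows, was not a member, with 10.5% left in Ku and 22.7% in Cov and a ratio of 0.464.

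On the list of other transcription factors, which holds the ID and SOX genes, BHLHE40 and HES1, 15 of 153 eligible genes (9.80%) were members. The bZIP genes CEBPD and CEBPB kept 3.64% and 2.62% in Ku cells and 21.0% and 10.2% in Cov cells. Their relative CEBPG was no member, with 15.3% and 13.4%. ERF, an ETS repressor highly expressed in Ku DMSO at 118 and 123 FPKM, kept 5.82% there and 18.5% in Cov cells. Outside the list, all 3 eligible IRF2BP genes, which encode IRF2-binding corepressors, were members: IRF2BPL kept 6.62% in Ku and 37.8% in Cov, IRF2BP1 1.70% and 8.22%, and IRF2BP2 1.92% and 6.34%. ZNF503, a zinc finger corepressor, had the third smallest ratio, at 31.9 and 30.8 FPKM in DMSO, 16.7 and 18.2 at 50 nM, and 0.744 and 0.808 at 250 nM in Ku. In Cov cells ZNF503 read 42.0 and 44.02, then 30.2 and 27.8, then 10.5 and 11.4. Of 147 eligible genes named ZNF with a number, 8 were members.

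Several members that inhibit signalling came from different lists and are described together after their values were seen. SOCS3, the feedback inhibitor of JAK-STAT signalling, read 30.9 and 28.2 FPKM in DMSO, 12.8 and 11.2 at 50 nM and 0.703 and 1.201 at 250 nM in Ku. Its Cov values were 14.7 and 16.8, then 7.95 and 8.32, then 3.50 and 3.33. NFKBIA, which holds NF-kB in the cytoplasm, kept 5.97% in Ku and 25.8% in Cov, after nearly equal shares of 50.3% and 50.8% at 50 nM. SOCS3 and NFKBIA were the only members among 36 eligible NF-kB and cytokine genes, of which 13 had less left in Ku, with list medians of 27.4% in Ku and 22.8% in Cov. On the receptor tyrosine kinase and RAS-ERK list, 4 of 47 eligible genes were members: the feedback inhibitors SPRY1 and SPRY2, the ERK phosphatase DUSP6, and the receptor EPHB4 (8.19% left in Ku and 24.7% in Cov cells). Of those 47 genes 21 had less left in Ku, and the list medians were 31.1% and 24.7%. SPRY2 kept 3.45% in Ku and 13.9% in Cov, SPRY1 1.28% and 4.09%, and DUSP6 3.87% and 12.5%, while SPRY4, with 42.9% and 69.4%, was no member, nor were the other 11 of 12 eligible DUSP genes. At 50 nM the order was the other way for these feedback inhibitors, with 67.2% of SPRY2, 38.5% of SPRY1 and 55.6% of DUSP6 left in Ku cells and 43.7%, 33.9% and 40.6% in Cov cells. Other inhibitors among the members, with the Ku share first, were HEXIM1, which sequesters the elongation kinase P-TEFb (8.93% and 31.6%), the cyclin-dependent kinase inhibitor CDKN1B (2.78% and 9.97%), the p53 target PHLDA3 (3.81% and 19.5%), the antiproliferative BTG2 (2.22% and 9.04%) and the mTORC1 inhibitor DDIT4 (5.83% and 17.5%). HEXIM1 was 1 member of 56 eligible genes on the transcriptional CDK list, of which 16 had less left in Ku, and DDIT4 1 of 23 on the PI3K and mTOR list, of which 7 had. CDKN1B was 1 of 7 eligible genes named CDKN, and CDKN1A kept 23.2% and 24.7%.

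On the list of cytoskeleton, adhesion and matrix genes 3 of 71 eligible genes were members, while 18 of the 71 had less left in Ku and the list medians were 48.9% in Ku and 37.3% in Cov. RHOB, a small GTPase that acts on actin and endosomes, read 36.0 and 35.0, then 16.7 and 16.9, then 1.30 and 1.56 in Ku cells. Cov cells gave 21.8 and 21.1, then 12.6 and 14.6, then 6.06 and 6.60. Its Ku libraries at 250 nM lay below all of its Cov libraries. The CDC42 effectors CDC42EP1 and CDC42EP2 kept 6.63% and 1.45% in Ku cells and 31.6% and 4.67% in Cov cells. The other 3 of 5 eligible CDC42EP genes were not members, with ratios of 0.568 (CDC42EP5), 0.763 (CDC42EP4) and 1.23 (CDC42EP3).

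**Figure D3:**
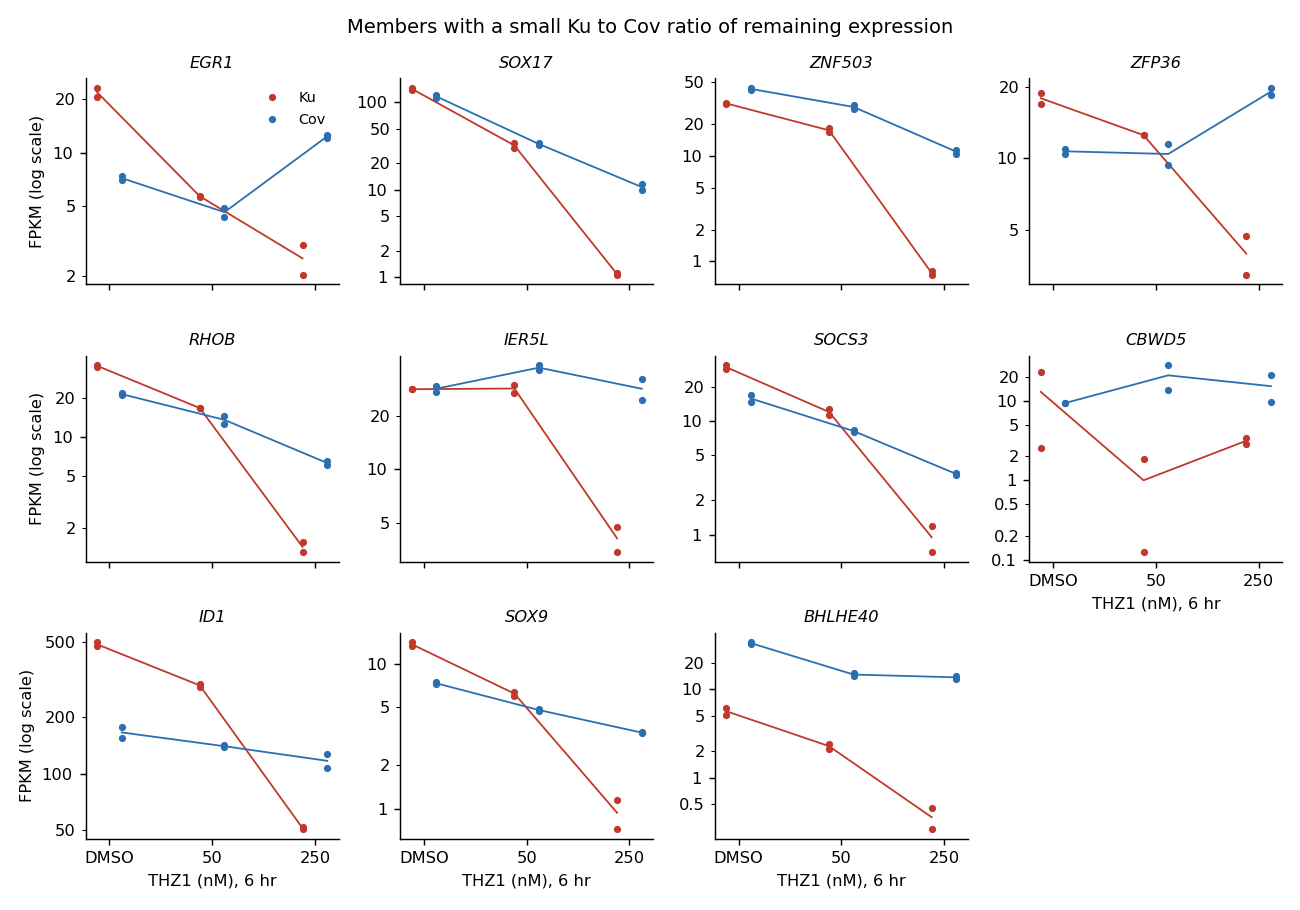
FPKM of each library (points, log scale, each panel with its own range) and the mean of the 2 replicates (lines) in DMSO and at 50 and 250 nM THZ1 in Ku cells (red) and Cov cells (blue), for 11 of the 12 members with the smallest ratio of shares left. In every panel but that of CBWD5 both Ku libraries at 250 nM lie below both in DMSO.

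CBWD5 was the member whose Ku DMSO libraries lay furthest apart as a ratio. In Ku cells it read 23.6 and 2.57 FPKM in DMSO, 0.124 and 1.88 at 50 nM, and 2.88 and 3.44 at 250 nM, so the DMSO and 250 nM libraries overlapped. The Cov libraries read 9.34 and 9.57, then 13.7 and 28.5, then 9.70 and 21.1. CBWD5 belongs to a family of near-identical copies between which short reads cannot be assigned with certainty, and FAM27A, MSL3P1 and LOC439994 are uncertain for the same reason. Another 8 members, ZNF691, C14orf169, OXSM, ZBTB45, MOCS3, LCMT2, CENPBD1 and HDHD3, had at least 1 Ku library at 250 nM within 2 times the floor, so their shares left in Ku cells are less certain.

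The remaining lists held up to 4 members each. The list of ubiquitin ligases held RNF113A (1 of 108 eligible genes, 4.94% left in Ku and 16.3% in Cov cells), that of long non-coding RNAs SNHG3 (1 of 21, 9.23% and 31.2%), and that of Notch, WNT and related signalling the WNT receptor FZD5 (3.59% and 10.8%) beside HES1, CYR61 and CTGF, which makes 4 of 49 (8.16%). The p53 target list held 2 of 23 (8.70%), PHLDA3 and BTG2. RBM15B, an RNA-binding protein, kept 5.19% and 18.03%. Of 77 eligible cell cycle and mitosis genes 1 (1.30%), CDKN1B, was a member, a share near the 1.18% of all eligible genes. The shares of the ubiquitin ligase list (0.926%) and the transcriptional CDK list (1.79%) were near it too. The lists of BCL2 family and apoptosis genes (28 eligible), DNA damage response genes (64), chromatin regulators (103), ribosome biogenesis and translation (61), mitochondrial and metabolic enzymes (67) and replication-dependent histones (13) held 0 members. Since 1.18% of all eligible genes were members, few or none would be expected in lists of these sizes. Altogether 46 of the 104 members were on at least 1 of the 22 lists and 58 on none. Picked out of the 58 after their values were seen, RPP25 and RPP25L, of which the first is a subunit of RNase P and RNase MRP, kept 3.68% and 6.38% in Ku, and 19.03% and 20.4% in Cov. They were 2 of 7 eligible RPP genes, and 4 of the 7 had less left in Ku, the 5 non-members having ratios from 0.571 (RPP38) to 1.23 (RPP40). Also picked out in this way, with the Ku share first, were the tRNA-modifying LCMT2 (1.81% and 6.10%) and MOCS3 (1.57% and 5.44%), the mitochondrial methionyl-tRNA synthetase MARS2 (2.25% and 7.87%) and the mitochondrial fatty acid synthesis enzyme OXSM (2.05% and 7.36%).

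The 50 nM libraries took no part in choosing the members, but the DMSO libraries they are compared with did. At 50 nM the median member kept 30.5% in Ku and 39.5% in Cov, while the median eligible gene kept 72.3% and 50.2%. Members were thus lower than most genes in both lines, and in Ku cells by more. The median log2 fold change of the members was -1.54 in Ku and -1.25 in Cov, against -0.44 and -0.93 for the eligible genes. Less was left in Ku than in Cov cells for 85 of 104 members (81.7%), whereas 7.59% of all eligible genes had less left in Ku cells. The 19 others included MYC, SPRY1, SPRY2, DUSP6, CYR61, CTGF, JUNB, IER2, IRF2BP2 and IRF2BPL. As a ratio of the shares DDIT4 went furthest, with 68.1% left in Ku and 37.8% in Cov.

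**Figure D4:**
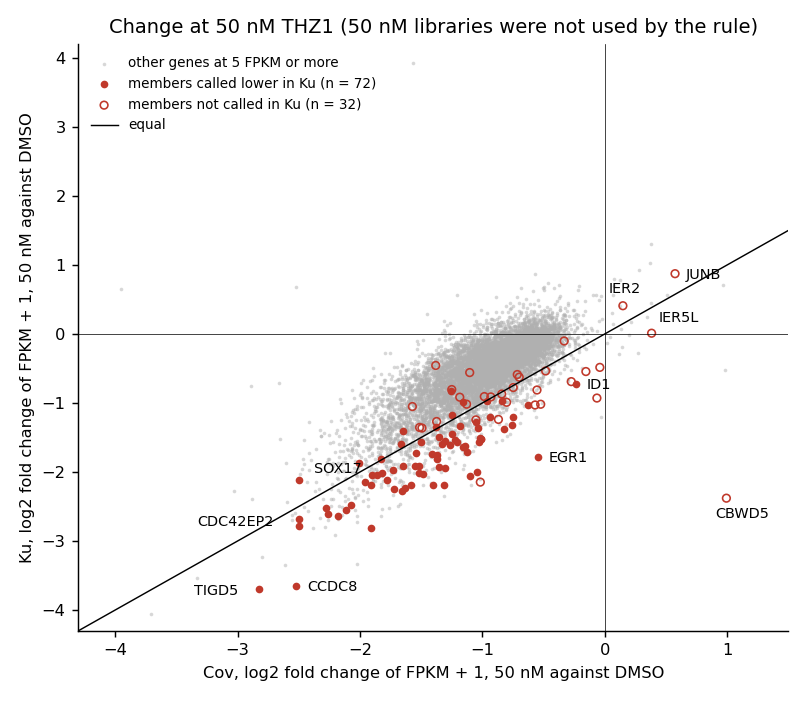
Log2 fold change of FPKM + 1 at 50 nM THZ1 against DMSO in Cov cells (x axis) and Ku cells (y axis) for the 72 members called lower in Ku cells (filled red), the 32 members not called there (open red) and the other eligible genes (grey), with a line at equality. Most members lie below the line and most other genes above it, with TIGD5 and CCDC8 lowest and JUNB highest among members in Ku cells.

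In limma's fit, calls required a log2 fold change beyond 0.5 in either direction together with a Benjamini-Hochberg adjusted p under 0.001. At 50 nM, 72 of 104 members were called lower in Ku cells, where 11.3% of all active genes were, and 88 were called lower in Cov cells, where 70.5% were. In Cov cells the members' share, 84.6%, was thus close to the 81.9% of eligible genes. Both lines called 69 members, Ku cells alone 3 (EGR1, ID1 and TPGS1), Cov cells alone 19 and neither 13. Of the 8826 eligible genes the same groups held 1093, 17, 6134 and 1582. The number in Ku cells rests on every library: leaving out any 1 of the 6 Ku libraries left between 0 and 10 members called, and between 6 and 131 of all active genes in place of 1607. Scaling all libraries to the same median FPKM left 10 members among 84 genes called in Ku and 2 among 22 in Cov, so the loss was general. That scaling moved the median log2 fold change of eligible genes from -0.44 to 0.22 in Ku and from -0.93 to 0.21 in Cov, and turned the fall of ZNF503, RHOB, SOCS3 and BHLHE40 in Cov cells, and the negative values of EGR1, ZFP36, ID1 and SOX9 that were not called there, into positive values, as it did for ZFP36 in Ku. The order of the libraries did not need the test. Both 50 nM libraries lay below both DMSO libraries for 101 members in Ku and 99 in Cov, as they did for 78.7% and 99.4% of eligible genes. JUNB and IER2 in Ku cells, and IER5L, CBWD5, JUNB and IER2 in Cov cells, lay above both DMSO libraries, as did 2.81% and 0.17% of eligible genes. In limma 0 members were called higher in either line (0.0842% of active genes in Ku, 0.0772% in Cov), while 2 in Ku and 3 in Cov had a higher level at an unadjusted limma p under 0.05, as had 91 and 10 of the eligible genes.

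Among the members, the largest called falls at 50 nM were led by the same pair of genes in both lines. TIGD5, a gene derived from a transposase, read 20.2 and 19.9 FPKM in DMSO and 0.657 and 0.586 at 50 nM in Ku, a log2 fold change of -3.70 ± 0.11 (limma adjusted p = 0.000129). Cov libraries had 23.9 and 24.7, then 2.80 and 2.34, a log2 fold change of -2.83 ± 0.12 (limma adjusted p = 2.13e-05). CCDC8, a cofactor in cullin-based ubiquitin ligation, fell by 3.65 ± 0.12 in Ku cells and by 2.52 ± 0.09 in Cov cells. IRF2BP1 (-2.81), CDC42EP2 (-2.78) and LCMT2 (-2.68) followed in Ku cells, and CDC42EP2 (-2.50), LCMT2 (-2.50) and CENPBD1 (-2.49) in Cov cells. TIGD5 thus had little further to fall, with 3.10% left at 50 nM and 1.36% at 250 nM in Ku. The 13 members called in neither line at 50 nM were ZFP36, IER5L, CBWD5, SOX9, IER5, ZNF703, ID4, JUNB, HEXIM1, ING1, FAM27A, PITX1 and IER2. Their log2 fold changes ran from -2.38 (CBWD5) to 0.87 (JUNB) in Ku and from -1.02 (FAM27A) to 0.99 (CBWD5) in Cov. ING1, a tumour suppressor that reads histone methylation, kept 92.5% in Ku cells at 50 nM and 5.59% at 250 nM.

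At 250 nM, where the values chose the members, both libraries lay below both in DMSO for 103 members in Ku and 98 in Cov, as for 99.4% and 99.8% of eligible genes, and above for 0 and 5, as for 0.0453% and 0.0793%. The members just inside the limit were SAC3D1, DDIT4, EPHB4 and FZD5, with ratios of 0.333, 0.333, 0.332 and 0.332. Just outside lay ZNF696, KTI12, ZNF414 and PPP1R9B, which read 9.94, 22.9, 9.72 and 23.3 FPKM on average in Ku DMSO and had ratios of 0.334, 0.335, 0.336 and 0.339.

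The members were mostly short genes with few introns, a property that the rule did not use. A gene model was matched for 102 of the 104 members, by symbol, in GENCODE on GRCh37. Of these, 30 (29.4%) had 1 exon and another 30 had 2, so 58.8% had at most 2 exons against 5.64% of eligible genes. The median member spanned 4184 bases from the start to the end of its transcript and the median eligible gene 26404 bases, while the median spliced lengths were 2361 and 3109 bases. Members with 1 exon included JUN, JUNB, JUND, IER5, IER5L, CEBPB, CEBPD, SOX4, SOX12, RHOB, IRF2BP1, HEXIM1, CCDC8 and TIGD5. Read the other way, 15.96% of the 188 eligible genes with 1 exon and 9.93% of the 302 with 2 exons were members, but 0.107% of the 3746 with over 10 exons. The exceptions were CBWD5, SMARCAL1, EPHB4 and FBXL19, with 15, 18, 17 and 11 exons. No member spanned over 100 kb, where 1207 eligible genes lay. Eligible genes with 1 exon, members included, had median shares left at 250 nM of 17.1% in Ku and 24.6% in Cov. Those with 2 exons had 13.1% and 17.3%, while all eligible genes had 35.8% and 31.5%. Less left in Ku cells was thus not particular to the members among genes with few exons.

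**Figure D5:**
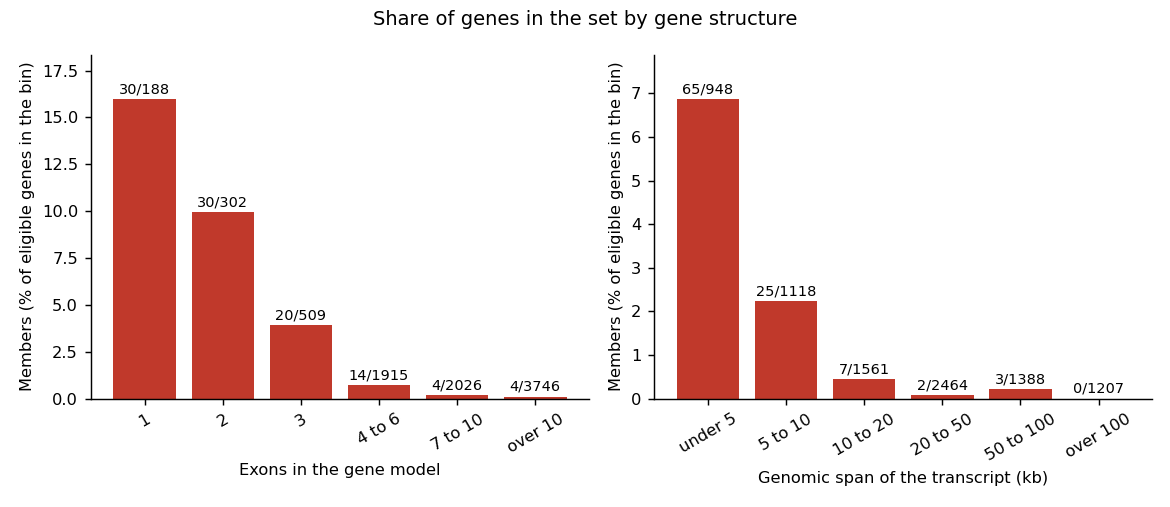
Members as a percent of the eligible genes in each bin of exon number (left) and of transcript span in kb (right), with the number of members over the number of eligible genes above each bar. The share falls from 15.96% at 1 exon to 0.107% above 10 exons, and from 6.86% under 5 kb to 0 above 100 kb.

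The members were set beside the 666 eligible genes that had at most 10% left in Ku cells at 250 nM and were not members. The 250 nM values chose both groups, so their shares left there are partly set by the choice. The members had less left in Ku cells (median 4.81%), so the groups were not matched. That group had median shares left of 6.64% in Ku and 8.41% in Cov, and 20.8% of it had at most 2 exons, between the eligible genes and the members. Its median span was 14360 bases. At 50 nM it kept 40.0% in Ku and 29.0% in Cov, the opposite order to the members, and 44.7% of it was called lower in Ku cells. These are descriptions, and no test was run between the groups. By exon number the members differed little in their calls at 50 nM, as 66.7% of the 60 members with at most 2 exons and 71.4% of the 42 with more were called lower in Ku cells. Of all eligible genes with 1 or 2 exons, 160 (32.7%) were called lower there, against 12.6% of eligible genes of any structure.

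Chromosome 19 held 16 of the members (15.7% of those with a gene model, against 6.02% of eligible genes), among them ZFP36, JUNB, JUND, IER2, ERF, IRF2BP1 and CCDC8. An annotated gene on the opposite strand overlapped 48 members (47.1%, against 61.1% of eligible genes), and since the sources do not state that counting used strand, reads of such partners may be mixed. Leaving these out with the 4 genes of uncertain assignment and those without a gene model left 51 members, of which 37 (72.5%) were called lower at 50 nM in Ku and 46 (90.2%) in Cov cells, and of which 60.8% had at most 2 exons.

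RefSeq promoter windows, from 250 bases before to 50 bases after the start, were matched by symbol for 84 members. TATAAA was found, on either strand, in 10.7% of them, in 4.98% of the windows of eligible genes and in 11.95% of all 27305 windows, the members being ID1, ID4, JUNB, NFKBIA, HEXIM1, BOLA1, MOCS3, CTDSP1 and CTGF. GGGCGG stood in 78.6% of member windows and 72.9% of eligible ones, and CCAAT in 41.7% and 37.9%. The E-box CACGTG was found in 7.14% and 10.9%, the ETS core CCGGAA in 23.8% and 33.7%, the AP-1 element TGANTCA in 2.38% and 3.99% and the CRE TGACGTCA in 3.57% and 3.60%. The CArG box was found in EGR1 alone among members (1.19%, against 1.09% of eligible genes) and the NF-kB motif in NFKBIA alone (1.19%, against 2.17%). The median share of G and C bases was 69.2% in members and 65.7% in eligible genes. Motifs can overlap one another, and a match in these letters does not show that a factor binds.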

How the data were processed

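The 12 RNA-seq libraries numbered 2 per line and condition. The authors added ERCC spike-ins to RNA normalized by cell count, prepared stranded mRNA libraries, aligned single-end reads to hg19 with HiSat, and computed FPKM with cuffquant and cuffnorm. The deposited values are spike-in normalized FPKM in separate tables of the lines, each with 23713 rows, of which 92 are ERCC RNAs. Read counts were not used here, low values did not resolve into whole reads, and so depth is unknown and edgeR, named by the study for its tests, was replaced. The ERCC RNAs above 1 FPKM had median log2 deviations from DMSO between -0.0058 and 0.0451. Samples were grouped by their labels, and every column of values was used.

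The members were found by the rule that opens the report. In R 4.3.3, limma 3.58.1 was fitted separately to the lines on log2(FPKM + 1) of 14251 genes above 1 FPKM in at least 1 library (eBayes with a trend, 3 groups of 2 libraries, two-sided), and p-values were adjusted over these genes by the Benjamini-Hochberg method. The fit was tested on simulated data in which few genes changed, in both directions. Those data lacked the general fall seen here, so that setting was not tested. An exact permutation test of 2 against 2 libraries cannot give a p below 0.33. The lines were normalized separately and were not tested against each other, so levels set side by side between lines carry that limit. Same-numbered libraries did not deviate together (Pearson's r across genes between -0.0703 and 0.0282), so replicate numbers were not treated as pairs.

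The members, the 22 gene lists (written from general knowledge), the motifs and the tests were chosen with earlier results of these data known. Genes were named by a rule: the 12 smallest ratios, the 8 highest Ku DMSO levels, the 4 on either side of the limit, the 5 largest called changes at 50 nM in each direction and line, list members (all, or 4 where a list held over 6), MYC and MCL1. Other genes were named after their values were seen. Some results that the rule would name are not reported here. Small RNA rows left out numbered 88 among those meeting the DMSO minimum, and 27 would have met the ratio. Gene models came from GENCODE on GRCh37 and promoters from RefSeq on GRCh38.p14. Alternatives set beforehand were other DMSO minima and ratio limits, FPKM + 1, geometric means, equal-median scaling, a pseudocount of 0.1, other FPKM minima and thresholds, a 2-group fit, the replicate block, no trend, and each library left out. The count without opposite-strand partners and uncertain copies, and the CArG box, were added after seeing the data.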

Additional observations from a re-analysis of the deposited data

Results flagged for a closer look

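In 5 members both libraries at 1 concentration lay on opposite sides of the DMSO libraries in the 2 lines, at 250 nM for 4 of them and at 50 nM for CBWD5. The difference itself was not tested, because the lines were normalized separately, and at 250 nM the same libraries chose the members. EGR1 at 250 nM had 11.5% of DMSO left in Ku cells and 172% in Cov cells. ZFP36 had 22.1% and 179%, JUNB 65.4% and 287%, and IER2 53.9% and 177%. CBWD5 at 50 nM had 7.67% and 223%, with 23.6 and 2.57 FPKM in its Ku DMSO libraries, and its reads cannot be told from those of near-identical copies.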

How the results depend on the processing

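The set itself held 104 members, and leaving out each DMSO or 250 nM library in turn gave between 96 and 137, with 67 of the 104 present in every such set. A DMSO minimum of 2 FPKM gave 158 members, ratio limits of 1/2 and 1/4 gave 319 and 42, and ratios of FPKM + 1 gave 35, of which 34 were among the 104. At 50 nM in Ku cells, where 72 members were called lower, no minimum FPKM and a fit of only the 2 groups compared each left 0, equal-median scaling left 10, and leaving out each library left between 0 and 10. Calls over all active genes fell too, from 1607 to 3, 9, 84 and between 6 and 131. Each of the 6 Ku libraries did so: 6 and 10 calls without DMSO replicates 1 and 2, 1 and 0 without the 50 nM ones, and 0 without either 250 nM one. For Cov, equal-median scaling left 2 of 88, and leaving out each library left between 61 and 88. At an adjusted p under 0.05, 1 member was called higher in Ku and 2 in Cov, among 88 and 32 active genes. The median log2 fold change of the members in Ku cells was -1.69 with a pseudocount of 0.1 and -0.88 under equal-median scaling, which moved that of the eligible genes to 0.22. For Cov it was -1.33 and -0.11, and the eligible median 0.21. Without single libraries it ran from -1.58 to -1.46 in Ku cells and from -1.29 to -1.17 in Cov cells. Under equal-median scaling ZNF503, RHOB, SOCS3 and BHLHE40 in Cov cells turned to log2 fold changes of 0.63, 0.53, 0.25 and 0.041, and the values of EGR1, ZFP36, ID1 and SOX9, not called there, to 0.48, 1.06, 0.98 and 0.51. In Ku cells ZFP36, also not called, turned to 0.18. With the replicate block, 48 members passed as lower in Ku and 79 in Cov, among 989 and 7266 active genes in place of 1607 and 10042, although the numbers do not pair the samples. The cause of these changes was not tested. Of 540 further values for single genes, 117 lost their call with the sign kept, 4 that had been called lower changed sign and 10 gained a call. Depth is unknown, and 8 members lie near the floor in Ku cells at 250 nM, which limits their shares.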
